A study of Rattus norvegicus with 6 samples.

Results

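The genes described are the 7 members of a pair of immediate early transcription factor families in rat C6 glioma cells: Nr4a1, Nr4a2 and Nr4a3, which encode orphan nuclear receptors, and Egr1, Egr2, Egr3 and Egr4, which encode zinc finger factors. They were chosen by gene symbol from a table of 32623 genes, and each symbol matched 1 row. C6 is an established rat glioma cell line. Cells were cultured for 24 h with forskolin (FSK), a plant diterpene that activates adenylyl cyclase and so raises cAMP, or for 24 h with the solvent DMSO. Both groups were grown in the same serum-containing medium, and each had 3 libraries. The dose of FSK is not given in the sources used here, and the labels number the replicates without saying whether each was a culture of its own. The p-values therefore reflect only how far these libraries differ among themselves, which may be technical.

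As background, immediate early genes are switched on by transcription factors already present in the cell, without new protein synthesis. In the cAMP pathway, protein kinase A phosphorylates CREB1, which binds the cAMP response element (CRE) with its CRTC coactivators. The Nr4a genes are among the classic targets of this route. The Egr genes are driven mainly through serum response factor, which binds CArG boxes together with ERK-activated Elk factors, and several carry CRE-like sites too. NR4A proteins bind the NBRE motif as monomers, or act with retinoid X receptors, and NR4A2 is best known in the brain for specifying dopamine neurons. EGR proteins bind a GC-rich site, are held in check by the corepressors NAB1 and NAB2, and include EGR2, which drives myelin genes in Schwann cells. Induction of both families is typically brief after a single stimulus, and the libraries here sample 1 late time.

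Library totals were 72.7 to 79.0 M counts in FSK and 72.1 to 80.0 M in DMSO. The glial markers S100b, Vim, Nes and Gfap had counts in every library, and all 4 passed the test described below, with log2 fold changes, FSK over DMSO, of 1.84, 0.33, -0.90 and 3.46. They summed to 1776 to 1824 FPKM in FSK and 1311 to 1336 in DMSO, and their part in the results was not tested. The neuron marker Rbfox3 and the endothelial markers Cdh5 and Cldn5 had 0 counts in all 6. Of the other neuron markers, Gad1 had 583 to 818 counts a library and did not pass (edgeR adjusted p = 0.318). On the log2 scale Slc17a6 rose by 0.71 (edgeR adjusted p = 0.0440) and Syt1 fell by 1.53 (0.0495). Snap25 did not pass the filter on low counts. Over the full lists, 5 neuron markers summed to 2.81 to 3.42 FPKM in FSK and 2.58 to 3.26 in DMSO, and 4 endothelial markers to 0.110 to 0.210 FPKM in FSK and 0.331 to 0.372 in DMSO. The 5 microglia markers summed to at most 0.226 FPKM in FSK and 0.303 in DMSO. Of the endothelial markers Tek carried nearly all of the sum, and its log2 fold change was -1.19 (edgeR adjusted p = 0.0257). The part of Tek in the results was not tested. In bulk RNA, a change in the number of expressing cells and a change in RNA per cell cannot be told apart.

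The sequences just upstream of these genes are shown first, since CREB and serum response factor are the routes best known to act on them. RefSeq windows of the rat build GRCr8, from 250 bases before an annotated start to 50 bases after it, matched 5 of the 7 genes by symbol: Nr4a1, Nr4a2, Egr1, Egr2 and Egr4. Nr4a3 and Egr3 did not match. Each window is written 5′ to 3′ on the strand of its gene. Capitals mark CRE half-sites (TGACG, or CGTCA where the site lies on the other strand) and CArG boxes.
Egr1: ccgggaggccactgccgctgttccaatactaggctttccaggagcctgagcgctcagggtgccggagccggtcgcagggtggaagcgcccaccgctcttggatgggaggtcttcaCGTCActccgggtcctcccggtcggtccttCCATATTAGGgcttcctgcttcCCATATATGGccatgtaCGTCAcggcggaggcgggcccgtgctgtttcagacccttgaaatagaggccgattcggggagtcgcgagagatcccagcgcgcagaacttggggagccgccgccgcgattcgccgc
Egr2: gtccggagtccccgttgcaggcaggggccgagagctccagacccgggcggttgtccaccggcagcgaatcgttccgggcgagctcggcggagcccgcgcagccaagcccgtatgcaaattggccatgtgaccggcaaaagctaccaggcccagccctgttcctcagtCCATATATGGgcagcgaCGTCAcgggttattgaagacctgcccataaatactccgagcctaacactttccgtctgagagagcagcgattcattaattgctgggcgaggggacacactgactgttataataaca
Egr4: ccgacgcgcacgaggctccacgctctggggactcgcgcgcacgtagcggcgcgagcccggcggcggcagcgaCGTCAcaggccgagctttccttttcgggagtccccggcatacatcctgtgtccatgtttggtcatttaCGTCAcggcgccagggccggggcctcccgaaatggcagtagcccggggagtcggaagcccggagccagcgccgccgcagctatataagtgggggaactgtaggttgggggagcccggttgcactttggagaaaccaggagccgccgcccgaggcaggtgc
Nr4a1: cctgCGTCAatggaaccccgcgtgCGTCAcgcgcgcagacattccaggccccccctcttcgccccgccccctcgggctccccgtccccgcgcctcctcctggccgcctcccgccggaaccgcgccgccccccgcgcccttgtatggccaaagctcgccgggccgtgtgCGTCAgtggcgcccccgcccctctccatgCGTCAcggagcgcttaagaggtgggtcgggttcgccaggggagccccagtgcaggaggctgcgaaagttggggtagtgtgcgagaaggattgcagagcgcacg
Nr4a2: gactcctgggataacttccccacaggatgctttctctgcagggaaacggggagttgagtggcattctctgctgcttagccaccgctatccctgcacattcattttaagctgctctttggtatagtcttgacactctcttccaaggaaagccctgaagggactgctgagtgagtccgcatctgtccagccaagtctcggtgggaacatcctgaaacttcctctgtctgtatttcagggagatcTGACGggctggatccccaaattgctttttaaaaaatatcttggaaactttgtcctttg

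The windows lie at chr18:26736828-26737127 on the plus strand for Egr1, chr20:21054392-21054691 on the minus strand for Egr2, and chr4:119607768-119608067 on the minus strand for Egr4. Those of Nr4a1 and Nr4a2 lie at chr7:134259888-134260187 on the plus strand and chr3:62104838-62105137 on the minus strand. The starts used for Nr4a1, Nr4a2 and Egr2 lie 12985, 11039 and 760 bases inside the annotated gene, so other annotated starts of these genes were not searched.

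CRE half-sites, searched on both strands, were present in all 5 windows, against 21.2% of 33469 rat windows of the same length. Nr4a1 held 4 of them, Egr1 and Egr4 held 2 each, and Egr2 and Nr4a2 held 1 each. The complete CRE, TGACGTCA, which would contain a half-site on each strand, was in none of the 5 windows and in 1.83% of all windows. CArG boxes were found in Egr1, which held 2, and in Egr2, which held 1, and occurred in 1.64% of all windows. In both Egr1 and Egr2, a CArG box spanned positions -83 to -74 and a half-site positions -66 to -62, counted from the start at +1. A half-site together with a CArG box occurred in 0.272% of all windows. G and C made up 72.3% of the Nr4a1 window, 68.0% of Egr4, 64.7% of Egr1, 59.0% of Egr2 and 48.7% of Nr4a2. The median over all windows was 51.7%, and the shares given for all windows were not matched for G and C content.

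The longest run of letters shared on the gene strand by the windows of Nr4a1, Egr1, Egr2 and Egr4 was 8 bases, CGTCACGG, which overlaps a half-site in each. It started at -53 in Nr4a1, at -66 in Egr1 and Egr2, and at -110 in Egr4. On either strand it was present in 0.684% of all windows, and it was picked out after these windows had been read. Its presence in the windows compared was thus set by the search, and that share is no fair reference. The Nr4a2 window was left out of the search for a shared run and does not hold these letters. The EGR motif GCGNGGGCG occurred in the Nr4a1 window only, on the minus strand, and in 4.98% of all windows. The NBRE motif AAAGGTCA was in none of the 5 and in 1.43% of all windows. These matches describe letters and do not show binding.

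**Figure D1:**
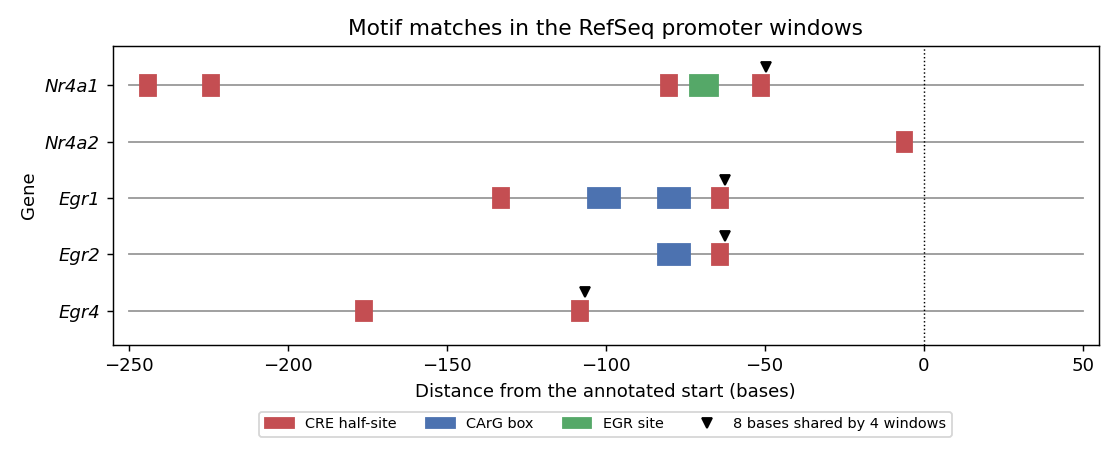
Positions of CRE half-sites (TGACG, either strand), CArG boxes and EGR motifs in the 5 RefSeq windows, in bases from the annotated start (dotted line), with triangles over the 8 bases shared by 4 windows. Egr1 and Egr2 have a CArG box at -83 to -74 followed by a half-site at -66 to -62.

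All 6 Nr4a and Egr genes with enough counts to test were higher after 24 h of FSK, by 1.56-fold for Egr1 and 15.4-fold for Egr3, with the other 4 between 2.19-fold and 3.05-fold. Egr4 was near the detection limit and had counts in FSK libraries only. Of the 6 tested genes, 6 rose in the edgeR quasi-likelihood test at a Benjamini-Hochberg adjusted p of 0.05 over 14166 genes, where 19.6% of all genes tested rose and 19.8% fell. Rises that passed the test and were at least 2-fold were seen for 5 of the 6, against 3.44% of all genes tested. The lowest FSK library exceeded the highest DMSO library for all 6, which was so for 26.6% of genes tested. All 6 had counts in every library, the lowest being 145 for Nr4a3 in DMSO replicate 1. The median log2 fold change was 1.48 over the 6 genes and -0.01 over all genes tested.

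**Figure D2:**
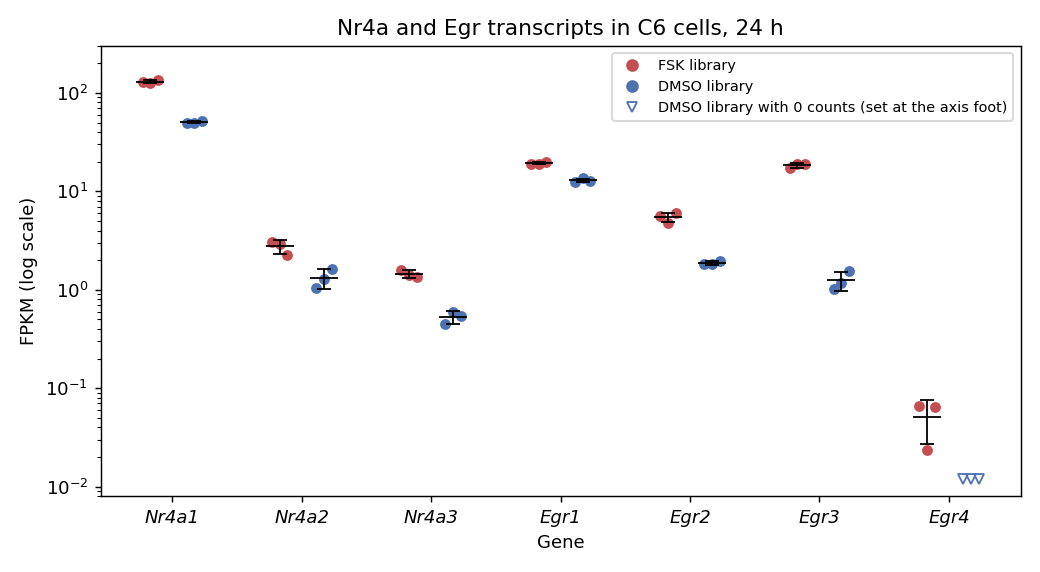
Level of each gene in FPKM (log axis), per library, with FSK left of DMSO; black bars are the mean ± SD of 3 libraries. FSK libraries lie above DMSO libraries for every gene, and Egr3 spans 17.2 to 19.2 FPKM in FSK and 1.02 to 1.55 in DMSO, while Egr4 had 0 counts in DMSO.

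Nr4a1 (ENSRNOG00000007607; Rnor_6.0 chr7:142905758-142920216, plus strand), which encodes NUR77, was by far the most abundant of the 7 transcripts per unit of length. Its levels were 129.5, 126.9 and 134.1 FPKM in FSK libraries 1 to 3, against 49.4, 49.7 and 51.7 FPKM in DMSO libraries 1 to 3. The groups were far apart, and within each group the libraries stayed close together. In CPM (counts scaled by library total and TMM factor) it averaged 363.5 ± 13.7 in FSK and 133.8 ± 1.24 in DMSO (SD, n = 3 each). The log2 fold change was 1.44 ± 0.05 (SE; edgeR adjusted p = 6.97e-07).

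Nr4a2 (ENSRNOG00000005600; chr3:43111240-43119159, minus strand), which encodes NURR1, was present at a low level and varied more between replicates than the other tested members in FSK and in DMSO. It had 10.8, 10.4 and 8.09 CPM in FSK, against 3.54, 4.42 and 5.39 CPM in DMSO. FSK replicate 3 was the lowest of its group and DMSO replicate 3 the highest of its own, and the groups still did not overlap. The coefficient of variation was 14.9% in FSK and 20.8% in DMSO, against medians over genes tested of 8.67% and 9.20%. The log2 fold change was 1.13 ± 0.19 (edgeR adjusted p = 0.00229). On the log2(FPKM + 1) scale with limma it was 0.70 (adjusted p = 0.00591), since the pseudocount compresses changes of low genes.

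Nr4a3 (ENSRNOG00000005964; chr5:63781801-63821637, plus strand), which encodes NOR1, was the lowest of the 3 receptors. It had 7.33, 6.55 and 6.28 CPM in FSK, against 1.99, 2.66 and 2.34 CPM in DMSO. The libraries of each group lay close together relative to the gap. On the log2 scale it rose by 1.53 ± 0.17 (edgeR adjusted p = 0.000295), and by 0.68 with limma on log2(FPKM + 1) (adjusted p = 0.000749).

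Among the Egr genes, Egr1 (ENSRNOG00000019422; chr18:27657628-27661429, plus strand), also known as Zif268 or NGFI-A and the member most often used as a marker of recent stimulation, had the smallest rise. It had 61.9, 62.9 and 65.9 CPM in FSK, against 40.0, 42.6 and 39.6 CPM in DMSO. All FSK libraries were above all DMSO libraries, and the coefficient of variation was 3.31% in FSK and 3.97% in DMSO. The log2 fold change was 0.64 ± 0.06 (edgeR adjusted p = 0.000123).

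Egr2 (ENSRNOG00000000640; chr20:22454463-22459025, minus strand), which encodes KROX20, had 5.59, 4.82 and 5.98 FPKM in FSK, against 1.82, 1.85 and 1.98 FPKM in DMSO. The DMSO libraries were nearly equal, and FSK replicate 2 was the lowest of its group. Its log2 fold change was 1.61 ± 0.12 (edgeR adjusted p = 2.97e-05).

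Egr3 (ENSRNOG00000017828; chr15:51756736-51760722, plus strand), an EGR factor with roles in muscle spindles, T cells and neurons, had the largest fold change of the 6 tested members. It had 3700, 3866 and 4125 counts in FSK, against 206, 261 and 341 counts in DMSO, or 52.4 ± 3.37 CPM against 3.39 ± 0.672 CPM (SD, n = 3 each). The lowest FSK count, 3700, was far above the highest DMSO count, 341. This is a log2 fold change of 3.95 ± 0.15 (edgeR adjusted p = 1.39e-06), which ranked 70 among the 14166 genes tested when ordered from the largest rise. In the same order Egr2 ranked 326, Nr4a3 354, Nr4a1 404, Nr4a2 664 and Egr1 1467.

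Egr4 (ENSRNOG00000015719; chr4:117293620-117296082, minus strand), which encodes NGFI-C, had 12, 4 and 12 counts in FSK and 0 counts in all 3 DMSO libraries. With all 6 libraries it did not pass the filter on low counts and was not tested with that filter. The 28 summed counts in FSK have an exact 95% Poisson interval of 18.6 to 40.5, which covers counting error only. Against a floor of 3 counts in each DMSO library, its mean CPM in FSK was 3.25-fold higher. That value takes the FSK mean as exact, and FSK replicate 2, with 4 counts, was close to the floor. With the filter removed it was called with an edgeR adjusted p of 0.0470, and no other alternative called it.

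The order of levels per unit of length was not the same in both groups. In FSK the order was Nr4a1, then Egr1 and Egr3, then Egr2, Nr4a2, Nr4a3 and Egr4. Egr1 (19.0, 19.2 and 19.8 FPKM) and Egr3 (17.2, 19.2 and 18.8 FPKM) overlapped there. In DMSO Egr1 stood alone below Nr4a1 at 12.6, 13.5 and 12.9 FPKM, and Egr3 (1.02, 1.17 and 1.55 FPKM) overlapped Nr4a2 (1.03, 1.30 and 1.62 FPKM). Summed FPKM over the Egr genes was 41.9, 43.2 and 44.6 in FSK and 15.4, 16.6 and 16.4 in DMSO. Egr3 made up 41.1, 44.4 and 42.1% of that sum in FSK and 6.63, 7.06 and 9.44% in DMSO. Egr1 made up 45.4, 44.4 and 44.4% in FSK and 81.6, 81.8 and 78.5% in DMSO. The composition of the Nr4a genes moved far less: Nr4a1 took 96.5 to 97.4% of their summed FPKM in FSK and 96.0 to 97.1% in DMSO.

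**Figure D3:**
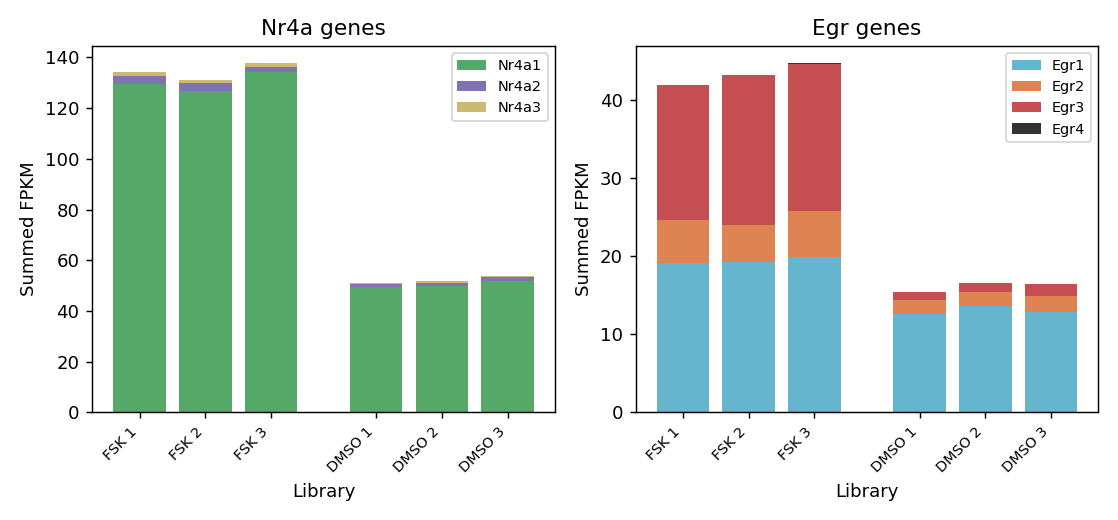
Summed FPKM of the Nr4a genes (left) and the Egr genes (right) in each library, stacked by gene, with FSK libraries left of DMSO libraries. Nr4a1 makes up 96.0 to 97.4% of the Nr4a bars, whereas Egr3 is 41.1 to 44.4% of the Egr bars in FSK and 6.63 to 9.44% in DMSO.

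Whether members differed in their response was examined with the FPKM ratio of each pair of the 6 tested genes, 15 pairs in all. The ratio of Egr1 to Egr3 was 1.11, 1.001 and 1.05 in FSK and 12.3, 11.6 and 8.31 in DMSO. The ratio of Nr4a1 to Egr3 was 7.52, 6.63 and 7.14 in FSK and 48.3, 42.5 and 33.4 in DMSO. The ratio of Nr4a1 to Egr1 was 6.80, 6.62 and 6.77 in FSK and 3.93, 3.67 and 4.02 in DMSO. For 9 of the 15 pairs the groups did not overlap, among them all 5 pairs with Egr3. Each of these 9 had a two-sided exact permutation p of 0.1, the smallest that 3 against 3 libraries allow, and an adjusted p of 0.167 over the 15 pairs. Groups overlapped for the other 6 pairs. In the same exact permutation test these were Nr4a1 with Nr4a2 (p = 0.4), with Nr4a3 (p = 0.6) and with Egr2 (p = 0.2), Nr4a2 with Egr1 and with Egr2 (p = 0.2 each), and Nr4a3 with Egr2 (p = 0.7). That does not show that those genes responded alike. The share of all gene pairs whose groups do not overlap was not computed, so the count of 9 has no reference.

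The other immediate early genes on a list of 34 went both ways. There were 33 tested, with 13 rises, 6 falls and 14 that did not pass, and a median log2 fold change of 0.11. Over all genes tested, 19.6% rose and 19.8% fell. The called genes with the largest changes were Fos, the AP-1 subunit gene, with 54.9 ± 1.62 CPM in FSK and 7.53 ± 1.17 in DMSO (2.87 ± 0.12, adjusted p = 2.24e-06), and Dusp1, a MAP kinase phosphatase gene, with 56.9 ± 2.09 CPM in FSK and 14.4 ± 0.774 in DMSO (1.98 ± 0.08, 1.30e-06). Atf3, a stress-induced ATF/CREB family gene, fell by 1.80 ± 0.18 (0.000150), and Sik1, a kinase gene that restrains CRTC coactivators, rose by 1.71 ± 0.11 (1.89e-05). Values in parentheses are log2 fold changes ± SE and edgeR adjusted p. Npas4 had 0 counts in all 6 libraries. Egr3 had a higher fold change than every tested gene on that list, and the other Nr4a and Egr genes lay within its range; neither difference was tested.

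**Figure D4:**
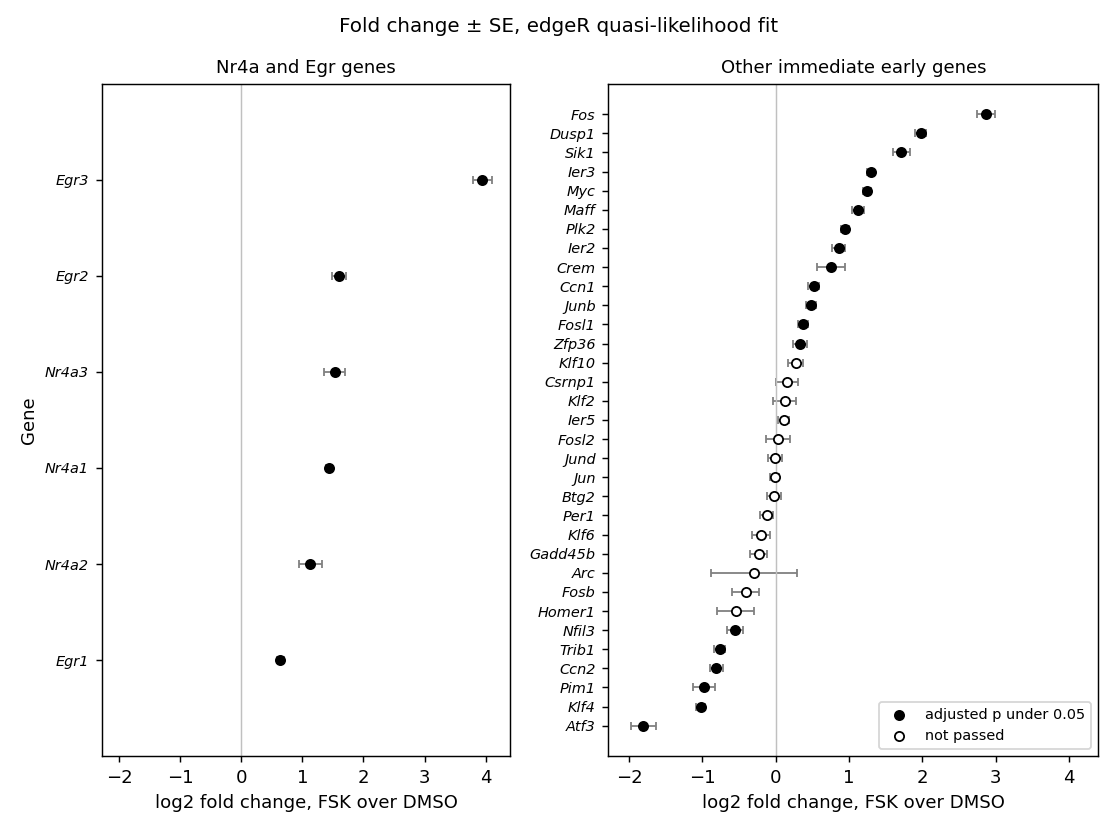
Log2 fold change, FSK over DMSO, ± SE from the edgeR fit for the 6 tested Nr4a and Egr genes (left) and the 33 tested genes of the immediate early list (right); filled points passed an adjusted p of 0.05. All 6 points on the left are filled and above 0, from 0.64 for Egr1 to 3.95 for Egr3, while the list on the right runs from -1.80 for Atf3 to 2.87 for Fos.

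Among genes of factors known to induce the Nr4a and Egr families, none of 6 CREB and CRTC genes passed in the main edgeR fit. Of all genes tested, 39.4% passed in one direction or the other. An unadjusted edgeR p under 0.05 was seen for 3 of the 6, and the median log2 fold change of the 6 was -0.18. DESeq2, limma on log2(FPKM + 1) and edgeR with robust dispersion each called 1 of them, Atf1. Atf1, a CREB relative, was at -0.29 with all 6 libraries (edgeR adjusted p = 0.0653) and at -0.41 without FSK replicate 2 (0.0219). Creb1 had 3.82 ± 0.714 CPM in FSK and 5.63 ± 1.22 CPM in DMSO (adjusted p = 0.0768, and 0.0311 without DMSO replicate 1). Both were named after their values were seen.

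Of 8 serum response factor, Mrtfa, Elk and Mef2 genes, 3 fell and 5 did not pass, with a median of 0.08. Over all genes tested, 19.6% rose and 19.8% fell. Mef2c, a MADS-box factor gene, fell by 1.60 ± 0.10 (edgeR adjusted p = 1.89e-05), to 9.20 ± 0.700 CPM in FSK, against 27.9 ± 2.10 CPM in DMSO. Elk3, a ternary complex factor gene, fell by 0.37 ± 0.05 (0.000756). Mef2a was at -0.44 ± 0.15 (0.0456) with overlapping groups, and its adjusted p was 0.104, 0.131 and 0.0797 without FSK replicates 1, 2 and 3, and 0.141 and 0.129 without DMSO replicates 2 and 3. Of 8 ERK and RSK kinase genes, 2 rose and 2 fell, beside the same shares of all genes tested, with a median of -0.21. Mapk3, encoding ERK1, rose by 0.33 ± 0.05 (edgeR adjusted p = 0.00117). Rps6ka2 fell by 0.49 ± 0.07 (0.00123), and Rps6ka1 rose by 0.34 ± 0.08 (0.0145; 0.0552 without FSK replicate 3). These last are RSK kinase genes.

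Of 3 tested corepressors and related factors of the EGR proteins, 1 rose, 1 fell and 1 did not pass, where 19.6% of all genes tested rose and 19.8% fell. Nab2, the EGR corepressor gene that EGR factors themselves induce, had 233.7, 238.0 and 249.3 CPM in FSK, against 191.6, 168.2 and 162.6 CPM in DMSO. The groups did not overlap, and the log2 fold change was 0.46 ± 0.07 (edgeR adjusted p = 0.00133). Sp1, a GC-box factor gene, fell by 0.53 ± 0.11 (0.00648), and Nab1 was at 0.05 (0.583). The related factor gene Wt1 did not pass the filter.

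Of 17 reported EGR targets, 4 rose, 7 fell and 6 did not pass, with a median log2 fold change of -0.32, beside the same 19.6% and 19.8% of all genes tested. Thbs1, encoding thrombospondin-1, fell by 1.89 ± 0.05 (edgeR adjusted p = 4.09e-07), to 224.3 ± 12.6 CPM in FSK, against 833.0 ± 15.0 CPM in DMSO. Hpse, encoding heparanase, fell by 1.40 ± 0.33 (0.0106), and Ptges, encoding a prostaglandin E synthase, rose by 1.06 ± 0.24 (0.00855).

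Of 8 rows for NR4A partners and cofactors, 4 fell and 4 did not pass, with a median of -0.30. Over all genes tested, 19.6% rose and 19.8% fell. Of 2 rows with the symbol Rcor1, a corepressor gene, 1 fell by 0.56 ± 0.13 (edgeR adjusted p = 0.0109). That row averaged 8.01 CPM in FSK and 11.8 CPM in DMSO. The other averaged 28.4 CPM in FSK and 29.8 CPM in DMSO and did not pass (-0.07, edgeR adjusted p = 0.589). Rxra, a heterodimer partner gene, was at -0.38 ± 0.11 (0.0238), but at 0.0547 and 0.0732 without DMSO replicates 1 and 2. The coactivator gene Ncoa1 was at -0.37 ± 0.12 (adjusted p = 0.0412), which became 0.102 and 0.128 without FSK replicates 2 and 3, and 0.124 and 0.118 without DMSO replicates 2 and 3. Ncoa2 was at -0.48 ± 0.14 (0.0269), which became 0.0601 and 0.0531 without FSK replicates 1 and 3, and 0.0906 and 0.0687 without DMSO replicates 2 and 3. The list's count of falls was accordingly 2 without FSK replicate 3, 1 without DMSO replicate 2 and 2 without DMSO replicate 3.

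Of 13 reported NR4A targets, 6 had enough counts to test: 1 rose, 3 fell and 2 did not pass, with a median of -0.87. The shares over all genes tested were 19.6% for rises and 19.8% for falls. The dopamine neuron gene Slc6a3 and the genes Ddc, Ret and Pomc, among the 7 that did not pass the filter, had 0 counts in all 6 libraries. Slc18a2, on the same list, had 129 to 308 counts a library and did not pass the test (-0.38, edgeR adjusted p = 0.364). Spp1, the osteopontin gene, fell by 2.33 ± 0.10 (edgeR adjusted p = 2.40e-06), and Eno3, a muscle enolase gene, by 1.35 ± 0.09 (2.54e-05). Slc2a4, encoding the GLUT4 glucose transporter, fell by 1.82 ± 0.36 (0.00492), and Nrp1, a semaphorin and VEGF co-receptor gene, rose by 0.61 ± 0.07 (0.000267). Targets on both lists were reported in other cell types, and some are shared with other regulators.

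The rises were set beside the nearest tested gene on each side, by the coordinates of the deposited table on Rnor_6.0. No annotated gene in the table overlapped any of the 7. The 14 neighbours lay 880 to 4343231 bases away and included 2 that rose, Grasp beside Nr4a1 and AC111804 beside Egr3. Of all genes tested, 19.6% rose and 19.8% fell. AC111804 (ENSRNOG00000062261; chr15:51761603-51762080) lies on the same strand as Egr3, with 880 bases between them. It had 347, 366 and 256 counts in FSK, against 25, 14 and 13 counts in DMSO. Its log2 fold change was 4.28 ± 0.37 (edgeR adjusted p = 7.51e-05), and 2.72 with limma on log2(FPKM + 1). Whether these counts belong to a separate gene or to an Egr3 transcript that extends beyond its annotated end was not tested. Rhobtb2, on the other side of Egr3, was at 0.01 (adjusted p = 0.895).

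Grasp, a scaffold protein gene 27410 bases from Nr4a1 on the same strand, rose by 0.51 ± 0.09 (edgeR adjusted p = 0.00237), to 76.5 ± 7.54 CPM in FSK, against 53.9 ± 3.74 CPM in DMSO. Atg101, on the other side of Nr4a1, was at -0.08 (0.292). Of the remaining neighbours, Stx17 and Sec61b beside Nr4a3 fell by 0.68 (0.00717) and 0.25 (0.00617), and Alms1 beside Egr4 fell by 0.66 (0.0129). Arl6ip6 beside Nr4a2 was at -0.38 (0.0248), and at 0.0829 and 0.0789 without FSK replicates 2 and 3 and 0.0715 without DMSO replicate 3. Reep2 beside Egr1 was at -0.28 (0.0402), with its adjusted p at 0.109, 0.0528 and 0.110 without FSK replicates 1, 2 and 3, and 0.0950 and 0.108 without DMSO replicates 1 and 2. Gpd2, Etf1, Ado, Nrbf2 and Fbxo41 did not pass.

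**Figure D5:**
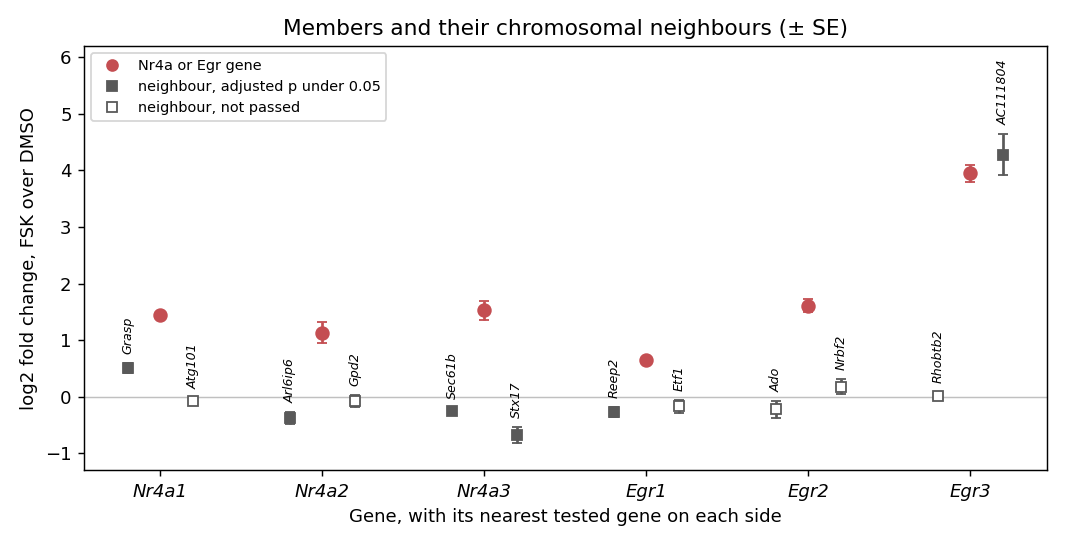
Log2 fold change, FSK over DMSO, ± SE from the edgeR fit for the 6 tested Nr4a and Egr genes (circles) and the nearest tested gene at lower (left square) and higher (right square) coordinates; filled squares passed an adjusted p of 0.05. AC111804 beside Egr3, at 4.28, is the only neighbour with a fold change close to that of the gene it flanks, and the other neighbours lie between -0.68 and 0.51.

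For each tested gene, the genes with the most similar profile were found by the root mean square difference in log2 CPM, each gene set to 0 at its DMSO mean, over the 6 libraries. As 39.4% of genes tested passed in one direction or the other, close matches are common and their order is a description only. Egr3 was closest to the matricellular gene Ccn3 (difference 0.209) and the receptor gene Gpr37l1 (0.260), which rose by 3.96 ± 0.07 and 3.70 ± 0.10 (edgeR adjusted p = 5.15e-08 and 2.85e-07). These distances were larger than those of the matches named for the other members. Nr4a1 was closest to the superoxide dismutase gene Sod3 (0.0367), the growth factor gene Bmp2 (0.0395) and the insulin receptor substrate gene Irs2 (0.0397). Nr4a3 was closest to Il1rl1 (0.0835), Rab32 (0.0899) and Pla2g2e (0.113).

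Egr2 was closest to the homeobox gene Dlx2 (0.0700), Saa4 (0.0890) and the growth factor gene Fgf7 (0.0933). Egr1 was closest to Rtfdc1 (0.0263) and Sec14l2 (0.0273). Nr4a2 was closest to Mir3554 (0.0864), the forkhead gene Foxc1 (0.101) and the ATP receptor gene P2rx4 (0.148). The Mir3554 hairpin gene had only 13 to 18 counts in FSK libraries and 4 to 9 in DMSO libraries and did not pass (1.42 ± 0.71, edgeR adjusted p = 0.150).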

How the data were processed

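RNA of C6 cells was sequenced as paired reads, per the labels' protocols. The submitters' processing notes name cutadapt, HISAT2, StringTie, edgeR and DESeq2 and the build Rnor_6.0, without settings. The authors deposited whole-number counts and FPKM per gene, so named in the file headers; FPKM is about 0.0001 where the count is 0. Neither the annotation release nor the use of strand in counting is given in the sources used here.

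Counts of 3 FSK and 3 DMSO libraries (72.1 to 80.0 M each, TMM factors 0.964 to 1.04) entered a quasi-likelihood fit in edgeR 4.0.16 (R 4.3.3), with TMM scaling, the default low-count filter (14166 genes kept), no block, Benjamini-Hochberg adjustment over all genes and a threshold of 0.05. The standard error comes from the F statistic. The test was checked on simulated counts. Intervals and the floor of 3 counts cover counting error only. Replicate pairs had a chi-square of 31.2 to 56.5 for each degree of freedom, so none repeats another.

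The members, gene lists and tests were chosen with earlier results of these data known. Genes named are the members, up to 4 called genes with the largest absolute change per list, the nearest tested gene on each side, and the 3 most similar profiles (log2 of CPM + 0.05; a symbol other than a clone or locus name; mean FPKM of at least 1). Alternatives were DESeq2 1.42.0 and its size factors, limma 3.58.1 on log2 FPKM with pseudocounts of 1 and 0.1, no filter, a minimum FPKM of 1, robust dispersion, a replicate block, and each library left out. The symbols Ep300, Mrtfb and Pecam1 matched no row and are not analysed here. Some genes that this rule names are not reported here.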

Additional observations from a re-analysis of the deposited data

How the results depend on the processing

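Over 14 alternatives, each of the 6 tested Nr4a and Egr genes kept its direction and stayed past the threshold. Their highest adjusted p was 0.0141, for Nr4a2 with a replicate block. All counts of rises and falls over all genes, over the members and over the lists together stayed within 1.5 times their main value. Of the counts for single lists, 11 moved by more and 213 did not; these were the falls of the CREB and CRTC list and of the NR4A partners and the rises of the ERK and RSK list. Of 65 named genes, 54 kept their side of the threshold throughout. With the low-count filter removed, 7 members rose instead of 6, Egr4 being called only there. The filter was set anew for each fit with 1 library left out, and Egr4 was called in none of those. The same replicate numbers occur in both groups, and the labels do not say whether they pair the libraries. Deviations of same-numbered libraries from their group means correlated at -0.04, 0.02 and -0.04, and not every library correlated best with its own number. With so few libraries, these correlations cannot settle whether same-numbered libraries were handled together. With a replicate block 2160 genes rose and 2165 fell, against 2772 and 2804 without it, and 6 members rose. The block left Mef2a, Ncoa1, Arl6ip6, Reep2 and Rps6ka1 past no threshold (adjusted p = 0.0691, 0.0990, 0.0654, 0.0807 and 0.0524). Removing 1 library gave 2169 to 2667 rises and 2076 to 2738 falls. Depth limits the precision of Egr4, at most 12 counts a library.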
